A study of Mus musculus with 30 samples.

Results

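The insulin-like growth factor (IGF) genes and the noncoding RNA *H19* were followed in mouse forelimb buds after WNT secretion had been blocked. The group was chosen by gene name and consists of 9 of the 50833 autosomal genes in the count table, namely the ligand genes *Igf1* and *Igf2*, the imprinted RNA gene *H19*, the receptor genes *Igf1r* and *Igf2r*, and the binding protein genes *Igfbp2*, *Igfbp3*, *Igfbp4* and *Igfbp5*. Each of the 9 genes was present in both deposited tables and passed the filter on low counts in every comparison. PolyA-enriched RNA, as the labels give it, was sequenced from 30 libraries of wild-type Swiss Albino forelimb buds, and each library was made from a single pair of buds. Pregnant females were injected intraperitoneally at E10.5 either with the solvent DMSO or with Wnt-C59 (C59), a small molecule that inhibits the acyltransferase porcupine and thereby the secretion of WNT ligands, and embryos were collected 1, 6, 12, 18 or 24 h later. These were the 10 groups, with 3 biological replicates in each, and nothing but the injected agent and the time separates them in the labels. By the study's methods the controls received DMSO in PBS, while the vehicle of C59 also held methylcellulose and the detergent Tween, so that the vehicles were not the same. Values of a group are given in the order of replicates 1, 2 and 3. The injection reaches the mother and the whole embryo, so that the limb bud is not the sole tissue exposed.

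IGF1 and IGF2 are secreted growth factors that signal through the tyrosine kinase receptor IGF1R. IGF2R, the cation-independent mannose 6-phosphate receptor, binds IGF2 and carries it to lysosomes, and the secreted IGF-binding proteins hold the ligands in the extracellular space and either restrain or present them. *Igf2* and *H19* are neighbouring imprinted genes that share enhancers and are expressed from opposite parental alleles, and both are abundant in embryonic mesoderm, while IGF signalling promotes growth and chondrogenesis in limb buds.

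In the GRCm38 (mm10) assembly with the GENCODE M21 annotation, *H19* (ENSMUSG00000000031, a lincRNA) lies at chr7:142575529-142578143 and *Igf2* (ENSMUSG00000048583) at chr7:142650766-142666816, both on the minus strand. *Igf1* (ENSMUSG00000020053) lies at chr10:87858265-87937042 on the plus strand. The receptor genes are at chr7:67952827-68233668 on the plus strand (*Igf1r*, ENSMUSG00000005533) and chr17:12682406-12769664 on the minus strand (*Igf2r*, ENSMUSG00000023830). *Igfbp2* (ENSMUSG00000039323, plus strand) and *Igfbp5* (ENSMUSG00000026185, minus strand) are neighbours at chr1:72824503-72852474 and chr1:72857932-72874884. *Igfbp3* (ENSMUSG00000020427, minus strand) and *Igfbp4* (ENSMUSG00000017493, plus strand) lie at chr11:7206086-7213923 and chr11:99041244-99054392.

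*H19* and *Igf2* each host a microRNA precursor, and the mature sequences are shown because these short RNAs are further products of the same loci that polyA libraries do not measure. The RefSeq sequences (GRCm38.p6, minus strand) are given 5′ to 3′ with the seed, bases 2 to 8, in capitals. The miR-675 pair (chr7:142577078-142577099 for the 3p arm and chr7:142577112-142577133 for the 5p arm) is exonic in *H19*, and the miR-483 pair (chr7:142654932-142654952 and chr7:142654968-142654989) is intronic in *Igf2*.
mmu-miR-675-5p: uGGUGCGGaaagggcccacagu
mmu-miR-675-3p: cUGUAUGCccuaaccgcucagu
mmu-miR-483-5p: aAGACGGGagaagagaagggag
mmu-miR-483-3p: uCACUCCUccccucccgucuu
The 4 seeds differ from each other, so that the sequences form no shared seed group.

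The *Igf1* promoter is shown because *Igf1* was the member with the largest fall. CTTTGAA and CTTTGAT, the core sequences bound by TCF/LEF factors that carry WNT signals to DNA, were searched on both strands in windows of 300 bases, 250 of them before the RefSeq start site. A match was found in 1 of the 12 promoters of the 8 members in the table, and in 8.7% of all 32851 promoters. The match (capitals) begins 186 bases before the *Igf1* start site and lies in an annotated *Igf1* exon block, at chr10:87860915-87860941 on the plus strand.
*Igf1*: gcgtggtggtCTTTGAAacatagctca
The match is a description of letters in this window and says nothing of binding.

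Counts summed to between 18188636 and 38974885 per library. *Axin2*, a WNT target that served as the check of the treatment, ran from 101 to 114 CPM (counts scaled to a common library size) in DMSO against 25.7 to 28.2 CPM in C59-treated buds at 6 h, with no overlap, and a log2 fold change of -1.97 ± 0.06 (SE, adjusted p = 3.65e-10), and it was lower by 1.46 on the log2 scale at 12 h (adjusted p = 1.49e-07). At 1 h it was lower by 0.20 on the log2 scale (adjusted p = 0.0315), a call lost without any one library other than DMSO replicate 3 (adjusted p from 0.0733 to 0.131). At 18 h and 24 h *Axin2* did not pass (log2 fold changes -0.15 and -0.08, adjusted p = 0.378 and 0.531), though it did at 18 h with all 30 libraries in the fit (-0.18, adjusted p = 0.0465). All 7 limb mesenchyme markers were detected, with a summed level of 1720 to 2340 CPM over the libraries, and the 6 erythroid markers, led by *Hbb-y*, summed to between 3100 and 8900 CPM. C59 replicate 3 of 18 h stood apart from the other two of its group, with 7190 CPM of erythroid markers against 4590 and 4670, 1810 CPM of limb mesenchyme markers against 2160 and 2010, and 424 CPM of ectoderm markers against 373 and 354. It was not alone in this, since replicate 3 of 12 h held 8900 CPM of erythroid markers against 6200 and 6470 in C59. In DMSO of 12 h, replicate 3 held 7320 CPM against 5660 and 5010. The log2 fold changes of the members at 18 h are given with and without C59 replicate 3 of 18 h. Every other library was left out in turn as well. In bulk libraries fewer cells of a type and less RNA per cell cannot be told apart.

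Per transcript length, in FPKM (fragments scaled by gene length and library size), *H19* ranked 3 and *Igf2* ranked 9 of 50830 genes by the mean over all libraries. Mean levels were 2897 FPKM for *H19*, 1380 for *Igf2*, 263 for *Igfbp4*, 147 for *Igfbp5*, 112 for *Igfbp2*, 50.7 for *Igfbp3*, 23.4 for *Igf2r*, 18.4 for *Igf1r* and 11.4 for *Igf1*. Over the libraries the ranges of *H19* and *Igf2* did not overlap, and neither did those of *Igf2* and *Igfbp4*. The ranges of all other neighbours in this order overlapped across libraries. Within a library each gene exceeded the next in this order in 30 of 30 libraries, except *Igfbp5* over *Igfbp2* (19 of 30) and *Igf1r* over *Igf1* (28 of 30). *H19* alone took between 0.377% and 0.636% of all counts.

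A gene was taken as passing when its Benjamini-Hochberg adjusted p over all genes tested (edgeR quasi-likelihood test, two-sided) was below 0.05. At 1 h, 0 of the 9 members passed, against 2.5% of the 15040 genes tested. An unadjusted p below 0.05 was reached by 2 members and by 2418 of the 15040 genes. DESeq2 called 0 members and 440 of all genes. At 6 h 4 members passed (2 higher and 2 lower in C59), against 17.1% of genes tested (7.02% higher and 10.1% lower in C59). At 12 h 7 passed (5 higher and 2 lower), against 43.1% (20% higher and 23.1% lower). With upper-quartile factors the 12 h split over all genes turned to 4100 higher and 2743 lower, from 3034 and 3517, and *Igf2* and *Igfbp4* then gained and *Igfbp2* lost the threshold. At 18 h 2 members passed (1 in each direction), against 5.69% (2.75% higher and 2.94% lower), and at 24 h again 2 passed (1 in each direction), against 5.21% (2.42% higher and 2.79% lower). The median log2 fold change of the members was 0.02, 0.07, 0.22, 0.40 and 0.12 from 1 h to 24 h, beside 0.0019, 0.0059, 0.025, 0.0055 and 0.0036 over all genes tested. *Igf1* was the sole member beyond a log2 fold change of 1, at 6 h and 12 h, where 1.52% and 5.3% of genes tested passed and exceeded it, beside 0.505%, 1.27% and 0.952% at 1, 18 and 24 h.

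**Figure D1:**
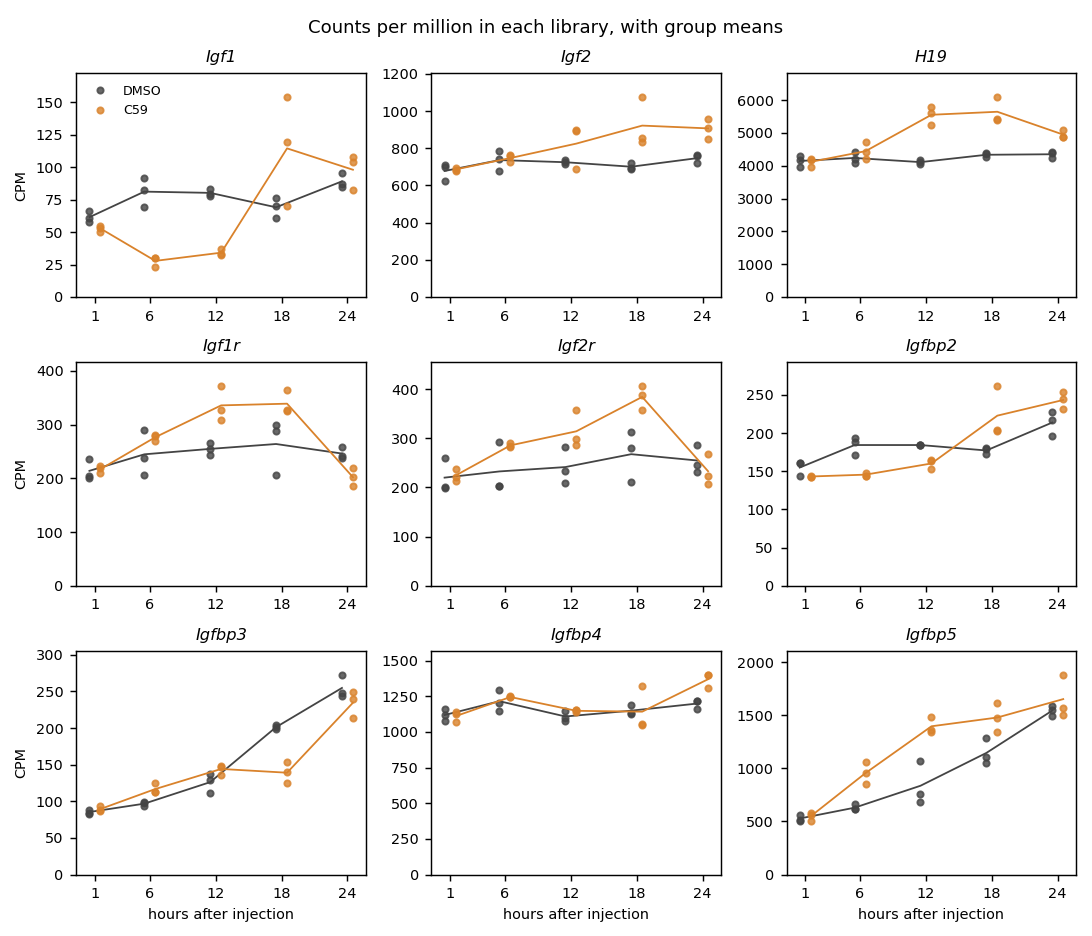
CPM (y axis from 0) of the 9 members against hours after injection, with a point for each of the 30 libraries and a line through the group means (grey DMSO, orange C59). *Igf1* in C59 sits between 23.2 and 37.0 CPM at 6 h and 12 h, below every DMSO library, and the 3 C59 libraries of 18 h are spread from 70.1 to 154 CPM.

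*Igf1*, the gene of the IGF1R ligand, was lower in C59-treated buds at 6 h and 12 h. At 1 h its levels were 66.2, 57.7 and 60.7 CPM in DMSO and 53.3, 54.7 and 50.5 CPM in C59. The groups did not overlap, as held for 1 of the 9 members and for 21.5% of genes tested, but the log2 fold change of -0.21 ± 0.06 did not pass (adjusted p = 0.0836). At 6 h DMSO libraries held 69.2, 91.9 and 82.6 CPM and C59 libraries 23.2, 29.9 and 30.4 CPM. The groups were far apart, and *Igf1* fell to 34.3% of the control level (log2 fold change -1.54 ± 0.11, adjusted p = 1.36e-06). At 12 h the values were 79.1, 78.1 and 83.6 CPM in DMSO and 32.1, 33.3 and 37.0 CPM in C59, again without overlap (log2 fold change -1.21 ± 0.06, adjusted p = 6.74e-07). Both falls passed under all 17 alternatives, with log2 fold changes from -1.64 to -1.42 at 6 h and from -1.27 to -1.04 at 12 h. The effect itself became more negative from 1 h to 6 h (interaction log2 -1.32 ± 0.14, adjusted p = 7.34e-06).

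At 18 h the *Igf1* levels were 60.6, 76.5 and 70.3 CPM in DMSO and 154, 119.7 and 70.1 CPM in C59. The first 2 C59 libraries lay above every DMSO library and replicate 3 lay within the DMSO range, so that the log2 fold change of 0.75 ± 0.24 did not pass (adjusted p = 0.105, but 0.0104 with DESeq2 and 0.00159 with all 30 libraries in the fit). The 18 h value passed under only 5 of 17 alternatives, with log2 fold changes from 0.48 to 1.00 and adjusted p up to 0.301. Without replicate 3, which stood apart in its markers, it was 1.00 ± 0.12 (adjusted p = 0.00183). On the FPKM scale that library still lay above the controls, with 14.5 FPKM against 9.62, 11.4 and 11.2 FPKM in DMSO. The change of the C59 effect from 12 h to 18 h passed both with all libraries (interaction log2 1.96 ± 0.28, adjusted p = 0.001) and without that library (2.21 ± 0.15, adjusted p = 1.74e-06). At 24 h *Igf1* was at 87.1, 95.6 and 84.9 CPM in DMSO and 82.4, 104 and 108 CPM in C59, with overlapping groups (log2 fold change 0.12 ± 0.09, adjusted p = 0.473, 95% interval -0.07 to 0.32). Leaving out C59 replicate 1 of 24 h gave 0.23 (adjusted p = 0.0437), and offsets for GC content and gene length gave 0.23 (adjusted p = 0.0224).

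*Igf2* encodes the second ligand, and its counts need a caution. Of its 5723 exonic bases, 62.8% are shared with *Gm49394*, a protein-coding gene annotated on the same strand, and 64.5% with any other gene. The ratio of CPM to FPKM implied a length of 0.56 kb for *Igf2*, which is 9.8% of its exonic length, against a median of 83.9% over 9580 genes of at least 10 CPM, of which 0.17% were as low. The overlap is taken from GENCODE M21 and not from the custom annotation used for counting, so that how many *Igf2* reads the counts left out was not tested, and both scales are given.

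Up to 6 h *Igf2* did not differ detectably between the treatments. At 1 h the levels were 622, 709.5 and 702 CPM in DMSO and 696, 685 and 677 CPM in C59 (log2 fold change 0.02 ± 0.05, adjusted p = 0.867), and the C59 libraries lay within the DMSO range. At 6 h DMSO libraries held 788, 742 and 679.8 CPM and C59 libraries 724, 762 and 757 CPM, with overlap on both scales (log2 fold change 0.02 ± 0.05, adjusted p = 0.806, 95% interval -0.09 to 0.14). At 12 h it was at 735, 725 and 715 CPM in DMSO and 891, 896 and 688 CPM in C59. Here 2 C59 libraries were above and 1 below all controls, and the log2 fold change of 0.21 ± 0.08 did not pass (adjusted p = 0.0624). On the FPKM scale, however, the values were 1269, 1250.4 and 1237 in DMSO and 1777, 1709 and 1541 in C59. These groups did not overlap, and limma on log2(FPKM + 1) gave a log2 difference of 0.42 ± 0.06 (adjusted p = 0.00398), while the counts passed without C59 replicate 3 of 12 h (0.33, adjusted p = 8.9e-05).

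At 18 h *Igf2* stood at 696, 719 and 688 CPM in DMSO and 856, 836 and 1075 CPM in C59. All C59 libraries were higher, but the log2 fold change of 0.42 ± 0.11 did not pass (adjusted p = 0.0643). It passed without C59 replicate 3, at a smaller 0.29 ± 0.05 (adjusted p = 0.00868), and FPKM gave 0.26 ± 0.13 (adjusted p = 0.31). At 24 h the levels were 764, 719 and 757 CPM in DMSO and 959, 851 and 912 CPM in C59, and *Igf2* passed with a log2 fold change of 0.27 ± 0.06 (adjusted p = 0.0341). The corresponding FPKM values of 1386, 1396 and 1401 in DMSO and 1540.2, 1545 and 1518 in C59 did not overlap either, but the difference of 0.14 ± 0.09 did not pass (adjusted p = 0.433). The call at 24 h was lost without DMSO replicate 1, 2 or 3 (adjusted p = 0.124, 0.148 and 0.137) or without C59 replicate 3 (adjusted p = 0.06), and with all 30 libraries in the fit (adjusted p = 0.0575).

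*H19*, a spliced and polyadenylated RNA that codes for no protein, rose at 12 h and 18 h. It did not differ detectably at 1 h (4312, 4172 and 3952 CPM in DMSO, 3958, 4186 and 4209 CPM in C59) and at 6 h (4419, 4083 and 4212 CPM in DMSO, 4424, 4716 and 4197 CPM in C59), with overlapping groups and 95% intervals of the log2 fold change from -0.09 to 0.08 and from -0.05 to 0.19. At 12 h DMSO libraries held 4161, 4113 and 4057 CPM and C59 libraries 5806, 5612 and 5245 CPM. The groups did not overlap on either scale, and *H19* was 37.5% higher in C59 (log2 fold change 0.46 ± 0.04, adjusted p = 6.73e-06), a call that held under all 16 alternatives that give a value (0.43 to 0.54). The effect itself increased from 6 h to 12 h (interaction log2 0.40 ± 0.07, adjusted p = 0.000985). It lost the threshold with limma on log2(FPKM + 0.1) (0.43, adjusted p = 0.0574).

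At 18 h *H19* was at 4345, 4388 and 4271 CPM in DMSO and 5439.5, 5408 and 6089.6 CPM in C59. The groups were again apart, with a log2 fold change of 0.41 ± 0.09 (adjusted p = 0.0358). The call was lost without DMSO replicate 1, 2 or 3 (adjusted p = 0.106, 0.128 and 0.172) or C59 replicate 1 or 2 (adjusted p = 0.0593 and 0.0814), and FPKM gave 0.45 without passing (adjusted p = 0.252). Without C59 replicate 3, which held the highest *H19* level, it was 0.34 ± 0.04 (adjusted p = 0.00176). At 24 h the values of 4244, 4432 and 4376 CPM in DMSO and 5086, 4892 and 4869 CPM in C59 did not overlap, but the log2 fold change of 0.17 ± 0.06 did not pass (adjusted p = 0.106). It passed with DESeq2 (0.17, adjusted p = 0.0217) and with all 30 libraries in the fit (0.19, adjusted p = 0.045). Of the exonic bases of *H19*, 9.1% are shared with *Mir675* and 2 small RNA genes on the opposite strand.

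*H19* over *Igf2* in FPKM averaged 2.06 ± 0.20 (SD, n = 3) in DMSO at 1 h and 1.997 ± 0.034 at 24 h, and the C59 groups of 1 h, 6 h and 24 h averaged 2.04, 2.05 and 2.07. The ratio was higher in C59 at 12 h (2.184, 2.150 and 2.235 against 2.005, 2.058 and 1.995 in DMSO) and at 18 h (2.241, 2.272 and 2.577 against 2.176, 1.999 and 2.031). At both times the groups did not overlap, and at 18 h C59 replicate 3 held the highest ratio. The smallest two-sided p that 3 against 3 libraries allow in an exact permutation test is 0.1, so that the ratio was not tested further.

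**Figure D2:**
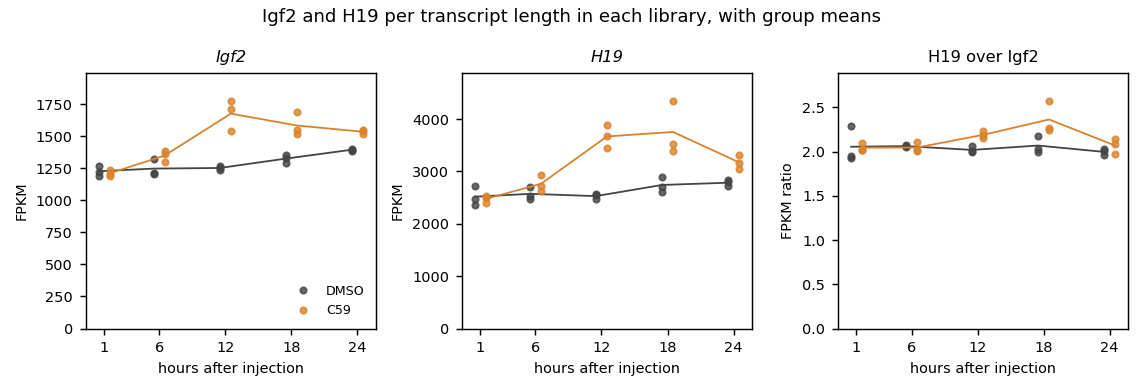
FPKM of *Igf2* and *H19* and the ratio of *H19* to *Igf2* (y axes from 0) against hours after injection, with a point for each library and a line through the group means (grey DMSO, orange C59). At 12 h the C59 libraries of *Igf2* lie between 1541 and 1777 FPKM and those of *H19* between 3444 and 3882 FPKM, above all DMSO libraries, while the ratio stays between 1.929 and 2.577 in every library.

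The levels of several members, both receptor genes among them, moved with a property of the libraries, the level of long genes. *Igf1r* has 16.79 kb, *Igf1* 9.90 kb and *Igf2r* 9.31 kb of exonic sequence. In each library the log2 level of the longest genes (from 9453 exonic bases) minus that of the shortest (up to 1168 bases), relative to the mean over libraries, was taken as a measure of this property. Over the 30 libraries it was correlated with *Igf1r* (Pearson r = 0.70) and with *Igf2r* (r = 0.72), and within groups the values were 0.72 and 0.63. For *Igf1* it was 0.20 over all libraries and 0.74 within groups, and for *Igfbp5* 0.60 and 0.55. Within groups the values were -0.70 for *Igfbp2*, -0.62 for *Igfbp4*, -0.58 for *H19*, 0.49 for *Igfbp3* and -0.33 for *Igf2*. These are descriptions over libraries that share groups and times. The fits were repeated with offsets for GC content and length, which gave *Igf1* log2 fold changes of -1.59 at 6 h (adjusted p = 1.21e-07), -1.22 at 12 h (adjusted p = 4.31e-07) and 0.85 at 18 h (adjusted p = 0.000535). The values of the receptor genes with these offsets stand beside their results from 6 h on.

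*Igf1r*, the signalling receptor gene, rose at 12 h and was lower at 24 h. At 1 h the groups overlapped at 201, 204 and 237 CPM in DMSO and 218, 223 and 210.2 CPM in C59 (adjusted p = 0.878). At 6 h the DMSO libraries held 207, 290.1 and 238 CPM and the C59 libraries 281, 279 and 269.9 CPM, with overlap through DMSO replicate 2 (log2 fold change 0.18 ± 0.09, adjusted p = 0.191). That DMSO library also had the highest long-gene value of its group, 0.103 against -0.0617 and -0.0804, and without it *Igf1r* passed at 0.32 (adjusted p = 0.00122). With the offsets the 6 h value was 0.07 ± 0.06 (adjusted p = 0.454). At 12 h the levels were 266, 254 and 244 CPM in DMSO and 308, 372 and 327 CPM in C59. All C59 libraries were higher, with a log2 fold change of 0.42 ± 0.06 (adjusted p = 0.000439) and of 0.32 ± 0.04 with the offsets (adjusted p = 0.000209).

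At 18 h *Igf1r* was at 206, 298 and 288 CPM in DMSO and 364, 325 and 328 CPM in C59. The groups did not overlap, but the spread among the controls was wide and the log2 fold change of 0.39 ± 0.14 did not pass (adjusted p = 0.152). Nor did it without C59 replicate 3 (0.40 ± 0.14, adjusted p = 0.106) or with the offsets (0.24 ± 0.09, adjusted p = 0.0977). At 24 h the order was the opposite, with 258, 238 and 242 CPM in DMSO above 186, 202 and 219 CPM in C59 (log2 fold change -0.30 ± 0.07, adjusted p = 0.0296). With the offsets it was -0.17 ± 0.05 (adjusted p = 0.0442), and C59 replicate 1 of 24 h had a long-gene value of -0.155 against 0.0447 and 0.0405 in the other two. The call was lost without DMSO replicate 1, 2 or 3 (adjusted p = 0.156, 0.0707 and 0.0969) or C59 replicate 2 (adjusted p = 0.0644), on the FPKM scale (adjusted p = 0.106) and with all 30 libraries in the fit (adjusted p = 0.142). From 18 h to 24 h the effect itself became more negative (interaction log2 -0.69 ± 0.17, adjusted p = 0.0272, and -0.41 ± 0.10, adjusted p = 0.0132, with the offsets), where 5.69% of genes tested passed. That interaction was lost without C59 replicate 1 of 18 h (adjusted p = 0.0558), DMSO replicate 1, 2 or 3 of 24 h (adjusted p = 0.0844, 0.0555 and 0.0624), or C59 replicate 1 or 2 of 24 h (adjusted p = 0.0656 and 0.0733).

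*Igf2r*, the clearance receptor gene, followed a like course up to 18 h. At 1 h the groups overlapped at 198, 202 and 260.3 CPM in DMSO and 222, 238 and 213 CPM in C59 (adjusted p = 0.895). At 6 h it was at 202, 293 and 203 CPM in DMSO and 289.6, 282 and 285 CPM in C59. DMSO replicate 2 again overlapped the treated group, and the log2 fold change was 0.30 ± 0.11 (adjusted p = 0.0761), or 0.50 without it (adjusted p = 4.23e-06) and 0.26 with the offsets (adjusted p = 0.073). At 12 h *Igf2r* rose from 233, 283 and 209 CPM in DMSO to 298, 357 and 287 CPM in C59 (log2 fold change 0.41 ± 0.11, adjusted p = 0.0109), and it passed under all 17 alternatives (0.30 to 0.52), among them the offsets (0.36, adjusted p = 0.0093). The lowest C59 library exceeded the highest control by little, 287 against 283 CPM. At 18 h the values of 210.3, 313 and 280.1 CPM in DMSO and 407, 358 and 389 CPM in C59 were apart, and the log2 fold change of 0.55 ± 0.14 did not pass (adjusted p = 0.0604), whereas it passed without C59 replicate 3 (0.53, adjusted p = 0.0493) and with the offsets (0.45, adjusted p = 0.0293). At 24 h the groups overlapped (286, 232 and 246 CPM in DMSO, 223, 207 and 269 CPM in C59, adjusted p = 0.46, or 0.481 with the offsets).

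**Figure D3:**
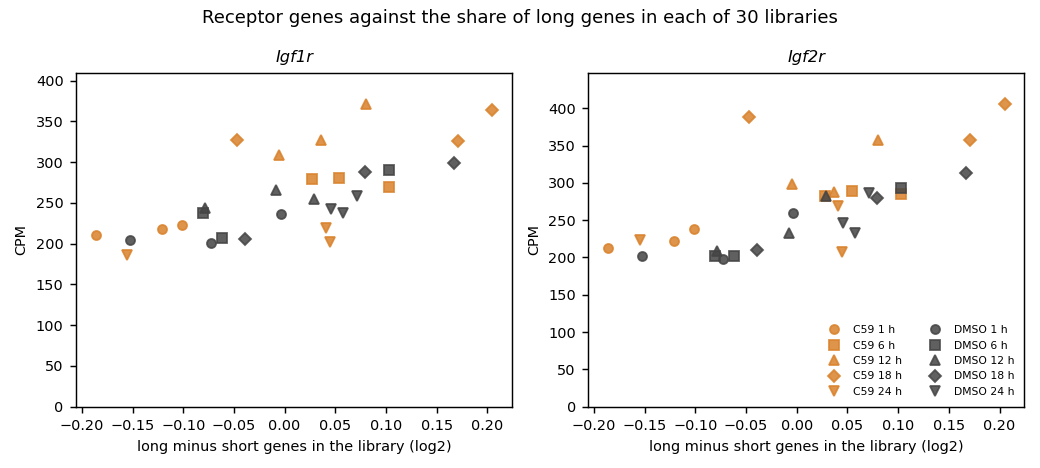
CPM of *Igf1r* and *Igf2r* (y axis from 0) against the log2 level of long genes minus short genes in the same library (x axis), with a symbol for each of the 30 libraries (grey DMSO, orange C59, shape by hour). Libraries with more long genes hold more of both transcripts (r = 0.70 and 0.72), and most C59 libraries of 12 h and 18 h lie above DMSO libraries of a like value.

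Among the binding protein genes, *Igfbp5* had the largest rise after C59, at 12 h, and both it and *Igfbp3* passed at 6 h and 12 h. At 1 h the groups overlapped (517, 507 and 561 CPM in DMSO, 583, 562 and 502 CPM in C59, adjusted p = 0.656). At 6 h the levels were 616, 660.3 and 615 CPM in DMSO and 850.1, 1065 and 955 CPM in C59. All C59 libraries were higher, by 52.2% on average (log2 fold change 0.61 ± 0.07, adjusted p = 8.27e-05), and the effect itself increased from 1 h to 6 h (interaction log2 0.55 ± 0.10, adjusted p = 0.0014). At 12 h the DMSO libraries held 757, 1069.7 and 684 CPM and the C59 libraries 1487, 1363 and 1342 CPM, without overlap (log2 fold change 0.76 ± 0.13, adjusted p = 0.000936). At 18 h the values of 1048, 1285 and 1106 CPM in DMSO and 1480.0, 1618 and 1342 CPM in C59 were apart too, but the log2 fold change of 0.40 ± 0.11 did not pass (adjusted p = 0.0781). It passed without C59 replicate 3 (0.45 ± 0.09, adjusted p = 0.0148). By 24 h the groups overlapped, at 1584, 1552 and 1499 CPM in DMSO and 1505, 1573 and 1883 CPM in C59 (log2 fold change 0.09 ± 0.08, 95% interval -0.09 to 0.26).

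*Igfbp3* changed direction. At 1 h the levels were 88.7, 83.1 and 84.3 CPM in DMSO and 93.8, 87.0 and 87.5 CPM in C59, with overlap (adjusted p = 0.51). At 6 h it was higher in C59, at 113, 125 and 113 CPM against 97.1, 99.2 and 94.0 CPM in DMSO (log2 fold change 0.27 ± 0.05, adjusted p = 0.00387). At 12 h the levels of 147, 149 and 137 CPM in C59 overlapped those of 111, 138 and 129.7 CPM in DMSO, and the gene passed at 0.22 ± 0.07 (adjusted p = 0.0331). This 12 h call was lost without DMSO replicate 1 or 3 (adjusted p = 0.142 and 0.0657) or C59 replicate 1 or 2 (adjusted p = 0.0701 and 0.0952), and without DMSO replicate 1 the log2 fold change was 0.13. At 18 h *Igfbp3* was lower in C59, with 199, 204 and 201 CPM in DMSO against 153, 139.6 and 124 CPM. The groups were far apart for the tight controls (log2 fold change -0.51 ± 0.10, adjusted p = 0.0204), and the change from 12 h to 18 h passed (interaction log2 -0.73 ± 0.12, adjusted p = 0.00333). Without DMSO replicate 1, 2 or 3 the 18 h call was lost (adjusted p = 0.0683, 0.0894 and 0.11), as it was without C59 replicate 2 (adjusted p = 0.0804), while the value stayed between -0.58 and -0.44. Without C59 replicate 3 it was -0.44 ± 0.06 (adjusted p = 0.00366). At 24 h the groups overlapped (244, 273 and 248 CPM in DMSO, 214, 249 and 240.3 CPM in C59, adjusted p = 0.306).

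*Igfbp2* was lower in C59 at 6 h and 12 h. At 1 h it was at 160.3, 160.4 and 144 CPM in DMSO and 142, 144 and 142 CPM in C59, and did not pass (log2 fold change -0.11 ± 0.05, adjusted p = 0.297), though it did without DMSO replicate 3 (-0.16, adjusted p = 0.0432). At 6 h it was at 189, 171 and 193 CPM in DMSO and 144, 144 and 148 CPM in C59 (log2 fold change -0.34 ± 0.05, adjusted p = 0.000723). At 12 h the levels were 185, 184 and 184 CPM in DMSO and 163, 165 and 152 CPM in C59, a smaller gap without overlap (log2 fold change -0.18 ± 0.04, adjusted p = 0.00818). The 12 h call rests on the scaling, since upper-quartile factors and FPKM each gave -0.10 (adjusted p = 0.0823 and 0.0846). At 18 h all C59 libraries were higher instead, at 203, 204 and 262 CPM against 179, 172 and 180.2 CPM. The log2 fold change of 0.36 ± 0.12 did not pass (adjusted p = 0.111) but did so without C59 replicate 3, at 0.22 ± 0.06 (adjusted p = 0.0382). The change of the effect from 12 h to 18 h passed (interaction log2 0.535 ± 0.13, adjusted p = 0.0203, and 0.40 ± 0.07, adjusted p = 0.00146, without C59 replicate 3 of 18 h). It was lost on both FPKM scales (adjusted p = 0.0969 and 0.1), without DMSO replicate 1 or 3 or C59 replicate 2 or 3 of 12 h (adjusted p = 0.0509, 0.0529, 0.0507 and 0.067), and without DMSO replicate 2 of 18 h (adjusted p = 0.0632). At 24 h C59 libraries held 254, 244 and 232 CPM and DMSO libraries 196, 228 and 218 CPM, which did not pass (log2 fold change 0.17 ± 0.07, adjusted p = 0.162).

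*Igfbp4*, the most abundant binding protein gene per length, passed at no time point except under some alternative settings. Its levels ran from 1069 to 1157 CPM at 1 h, from 1149 to 1297 CPM at 6 h and from 1079.5 to 1153 CPM at 12 h over both groups. The 95% intervals of the log2 fold change were -0.09 to 0.08, -0.07 to 0.14 and 0.00039 to 0.15 at these times. At 18 h the C59 libraries held 1055, 1050.2 and 1321 CPM and the DMSO libraries 1189, 1135 and 1122 CPM, so that C59 replicate 3 was above and the other two below all controls (log2 fold change 0.02 ± 0.11, or -0.11 ± 0.05 without it, adjusted p = 0.185). At 24 h the C59 libraries, at 1400.3, 1398 and 1309 CPM, lay above the DMSO libraries at 1162, 1215 and 1219 CPM, with a log2 fold change of 0.18 ± 0.06 (adjusted p = 0.0924). At 12 h it passed with upper-quartile factors (0.15, adjusted p = 0.00623), on FPKM (0.17, adjusted p = 0.013) and with a filter of at least 1 CPM on average (0.091, adjusted p = 0.0484). At 24 h it passed with DESeq2 (0.18, adjusted p = 0.0268).

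**Figure D4:**
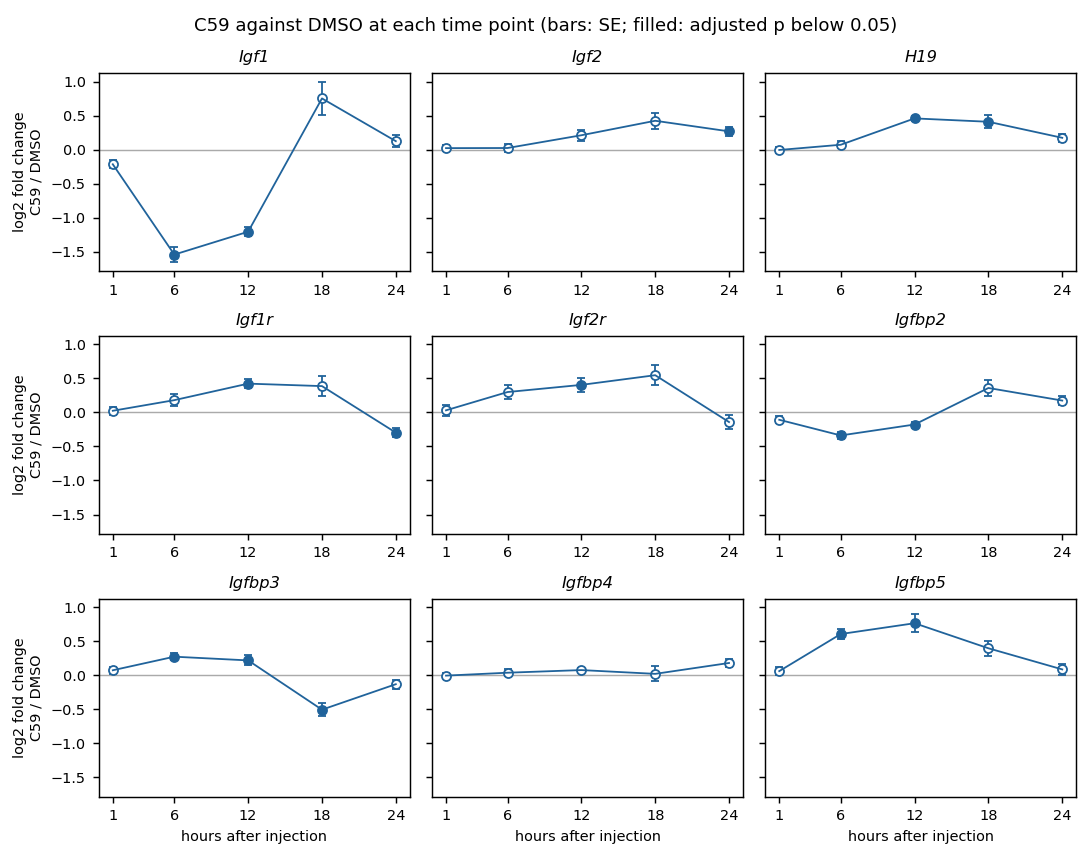
Log2 fold change of C59 against DMSO (y axis, common to all panels) for the 9 members at 1, 6, 12, 18 and 24 h (x axis), from 3 libraries per group, with bars for the standard error and filled circles for an adjusted p below 0.05. *Igf1* reaches -1.54 at 6 h, *Igfbp5* 0.76 at 12 h, and *Igfbp3* goes from 0.22 at 12 h to -0.51 at 18 h.

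Over the members, 4 of 9 had groups that did not overlap in CPM at 6 h, against 34.8% of genes tested, 6 at 12 h against 53.6%, 7 at 18 h against 32.2% and 5 at 24 h against 26.8%. Without C59 replicate 3 of 18 h, 7 members passed at 18 h in place of 2, and over all genes 2073 passed in place of 876. With all 30 libraries in a common fit, 8 members passed at 18 h, all but *Igfbp4*, and over all genes 3888 of the 16838 tested passed. The interactions that passed numbered 2 of 9 members from 1 h to 6 h (10.7% of genes tested), 1 from 6 h to 12 h (14.6%), 3 from 12 h to 18 h (7.36%) and 1 from 18 h to 24 h (5.69%).

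Markers of the limb mesenchyme and of other cell types moved at times when members did. At 6 h, when 17.1% of all genes tested passed, the limb mesenchyme list had 1 of 7 higher and 5 lower (2260 to 2340 CPM in DMSO against 1780 to 1890 CPM in C59), the muscle list 2 higher and 1 lower of 7, and the cartilage list 1 higher of 5 tested (855 to 918 CPM against 988 to 1170 CPM). The ectoderm list had 1 higher and 1 lower of 8, and the neural crest list 1 higher of 4 tested. The endothelium and erythroid lists each had 1 lower, of 6 and 5 tested, and the macrophage list 0 of 7 passing. At 12 h, when 43.1% of all genes tested passed, 6 of 7 cartilage condensation markers were higher in C59, led by *Col2a1*, with summed levels of 1000 to 1060 CPM in DMSO and 1860 to 2560 CPM in C59. The ectoderm list had 6 of 8 higher (263 to 299 CPM against 357 to 483 CPM), the macrophage list 5 of 7 higher (23.3 to 25.3 CPM against 39.7 to 42.5 CPM), and the neural crest list 3 of 4 tested higher (35.9 to 49.9 CPM against 80.8 to 108 CPM). The limb mesenchyme list had 2 of 7 higher and 5 lower (2160 to 2240 CPM against 1720 to 1860 CPM), the muscle list 2 higher and 4 lower of 7, and the endothelium list 3 of 6 higher (271 to 296 CPM against 330 to 368 CPM). The erythroid list had 1 of 5 tested higher. At 18 h, when 5.69% of all genes tested passed, the cartilage markers summed to 1750 to 2060 CPM in C59 against 1100 to 1300 CPM in DMSO, with 4 of 7 higher. At this time the muscle list had 4 of 7 lower (207 to 216 CPM in DMSO against 140 to 177 CPM in C59), all 4 beyond a log2 fold change of -1, the limb mesenchyme list 3 of 7 lower, the ectoderm list 3 of 8 higher, the macrophage list 3 of 7 higher, and the erythroid and endothelium lists none passing of 5 and 6 tested. Of the 4 neural crest markers tested at 18 h, 1 was higher. At 24 h, when 5.21% of all genes tested passed, 4 of 7 muscle and 2 of 7 limb mesenchyme markers were lower. By then 4 of 8 ectoderm, 3 of 7 cartilage, 2 of 7 macrophage and 1 of 4 neural crest markers were higher. The erythroid and endothelium lists each had 1 lower. At 1 h, when 0 members and 2.5% of all genes tested passed, 2 of 5 erythroid markers were higher and 1 of 7 limb mesenchyme markers was lower. None of the defining markers was at 0 in every library, and the part of these cell types in the results of the members was not tested.

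Most members rose over the day that the controls developed. Between DMSO at 1 h and DMSO at 24 h 6 of 9 members were higher and 0 lower, against 53.5% of genes tested that passed (26.6% higher and 26.8% lower). The groups of 7 members did not overlap, against 60.4% of genes tested. *Igfbp3* went from 85.4 ± 2.9 to 255 ± 16 CPM (SD, n = 3), a log2 change of 1.58 ± 0.05 (adjusted p = 3.44e-11), and *Igfbp5* from 528 ± 29 to 1545 ± 43 CPM, a log2 change of 1.56 ± 0.05 (adjusted p = 2.27e-11). These were the 2 members beyond a log2 change of 1, which held for 11.7% of genes tested. *Igf1* rose by 0.54 ± 0.06 (adjusted p = 5.22e-06) and *Igfbp2* by 0.47 ± 0.06 (adjusted p = 1.76e-05). *Igf1r* rose by 0.21 ± 0.06 (adjusted p = 0.00982), which the offsets for GC content and length reduced to 0.02 (adjusted p = 0.778), and *Igf2* by 0.15 ± 0.05 (adjusted p = 0.0313). The *Igf2* call was lost without DMSO replicate 1 of 1 h (adjusted p = 0.0614) or replicate 1 or 3 of 24 h (adjusted p = 0.107 and 0.108), and with the offsets (0.10, adjusted p = 0.0943). With all 30 libraries in the fit the *Igf1r* and *Igf2* calls were both lost (0.20 and 0.14, adjusted p = 0.134 and 0.187). On log2(FPKM + 0.1) that of *Igf2* was lost as well (adjusted p = 0.0585). *H19*, *Igf2r* and *Igfbp4* gave 0.08, 0.22 and 0.11 (adjusted p = 0.185, 0.0674 and 0.0539). *H19* passed without DMSO replicate 1 of 1 h (0.12, adjusted p = 0.0257), *Igf2r* without replicate 3 of 1 h or replicate 2 of 24 h (0.36 and 0.28, adjusted p = 0.000732 and 0.0311), and *Igfbp4* without replicate 1 of 1 h (0.15, adjusted p = 0.00937). In all, *Igf2r* passed under 6 of 17 alternatives, among them upper-quartile factors (0.25, adjusted p = 0.0409). *Igfbp4* passed under 8 of 17, among them DESeq2 (0.11, adjusted p = 0.0265) and log2(FPKM + 1) (0.16, adjusted p = 0.0335). With the offsets *H19* passed too (0.13, adjusted p = 0.00587).

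In C59-treated buds 7 members were higher and 0 lower at 24 h than at 1 h, against 48.9% of genes tested that passed (26.1% higher and 22.8% lower). The groups of 7 members did not overlap, against 58.7%. *Igfbp5* and *Igfbp3* again led, with log2 changes of 1.60 ± 0.09 (adjusted p = 9.58e-09) and 1.40 ± 0.07 (adjusted p = 2.74e-09), and they alone of the members were beyond 1, as were 13.6% of genes tested. *Igf1* rose by 0.90 ± 0.09 (adjusted p = 3.33e-06), *Igfbp2* by 0.78 ± 0.06 (adjusted p = 1.92e-07), *Igf2* by 0.41 ± 0.06 (adjusted p = 0.000116), *Igfbp4* by 0.31 ± 0.06 (adjusted p = 0.000735) and *H19* by 0.28 ± 0.06 (adjusted p = 0.00273, but 0.0531 on the FPKM scale). *Igf1r* gave -0.09 ± 0.07 and *Igf2r* 0.07 ± 0.09 (adjusted p = 0.264 and 0.552). Whether these changes differ from those in the controls was not tested.

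Further genes of the pathway were taken from 3 lists with 35 genes in all. Of 10 genes for other binding proteins and the proteins that cut them or control this cleavage, between 7 and 9 were tested at each time, and their number passing was 0 at 1 h, 1 higher at 6 h, 2 lower at 12 h, 2 lower at 18 h, and 1 higher and 1 lower at 24 h, beside shares of 2.5%, 17.1%, 43.1%, 5.69% and 5.21% of all genes tested at these times. *Pappa2*, a protease that releases IGF from binding proteins, had the largest changes after C59 among the genes of this list that passed. It was at 2.44 ± 0.34 CPM in DMSO and 0.374 ± 0.15 CPM in C59 at 12 h (SD, n = 3), a log2 fold change of -2.63 ± 0.33 (adjusted p = 0.000124). The C59 level of 12 h was near the floor, and the gene could meet the filter through the DMSO libraries alone, so that the size of this fold change is uncertain. It remained lower at 18 h (2.92 ± 0.48 against 0.888 ± 0.33 CPM, log2 fold change -1.70, adjusted p = 0.0162) and at 24 h (11.5 ± 1.7 against 3.39 ± 0.84 CPM, log2 fold change -1.77, adjusted p = 0.000287). The groups did not overlap at these 3 times, and the 18 h call was lost without DMSO replicate 2 or 3 (log2 fold change -1.54 and -1.72, adjusted p = 0.0766 and 0.0727) and held without C59 replicate 3 (-1.43, adjusted p = 0.0105). *Stc1*, a secreted inhibitor of such proteases, was higher at 6 h (log2 fold change 0.90 ± 0.11, adjusted p = 0.000129) and lower at 18 h (-0.56 ± 0.13, adjusted p = 0.0356). *Igfbpl1* was lower at 12 h (-0.69 ± 0.23, adjusted p = 0.0306) and *Htra1*, a serine protease gene, higher at 24 h (0.69 ± 0.13, adjusted p = 0.00898). The *Stc1* call at 18 h was lost without DMSO replicate 1, 2 or 3 or C59 replicate 1 or 2 (adjusted p = 0.0785, 0.12, 0.175, 0.0603 and 0.107), and it held without C59 replicate 3 (-0.51 ± 0.11, adjusted p = 0.0252). It was also lost on log2(FPKM + 1) and with the replicate block (adjusted p = 0.0975 and 0.104). The call of *Igfbpl1* was lost without DMSO replicate 2 or C59 replicate 2 or 3 (adjusted p = 0.105, 0.0807 and 0.0863), and that of *Htra1* without DMSO replicate 1 (adjusted p = 0.0538). On log2(FPKM + 1) the *Igfbpl1* call was lost as well (adjusted p = 0.087). The median log2 fold change of this list from 1 h to 24 h was 0.15, 0.019, -0.64, -0.046 and 0.19. In DMSO 7 of the 8 tested rose from 1 h to 24 h, 6 of them beyond a log2 change of 1, beside 26.6% of all genes tested that were higher and 11.7% that passed beyond 1 in either direction. Both counts include *Igfbp1* (0.092 CPM at 1 h, 1.23 CPM at 24 h) and *Igfbp7* (0.369 and 1.32 CPM). These were near the floor at 1 h and could meet the filter through the 24 h libraries alone, so the counts are no measure of a common rise.

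Of 22 genes for insulin and IGF receptor signal transduction, 0 of 21 tested passed at 1 h, 5 were higher and 1 lower at 6 h, 7 higher and 3 lower at 12 h, 2 higher at 18 h, and 1 higher and 1 lower at 24 h. The 10 of 22 at 12 h stand beside 43.1% of all genes tested, and the 6 of 22 at 6 h beside 17.1%. *Foxo3*, a transcription factor gene whose protein is restrained by AKT, was higher at 6 h (log2 fold change 0.40 ± 0.05, adjusted p = 0.000275), 12 h (0.88 ± 0.07, adjusted p = 4.3e-06) and 18 h (0.45 ± 0.11, adjusted p = 0.0453). *Gab1*, which encodes a docking protein, rose by 0.19 ± 0.05 at 6 h (adjusted p = 0.0294) and by 0.60 ± 0.05 at 12 h (adjusted p = 7.03e-06), and *Pik3r1*, a regulatory subunit of PI3 kinase, by 0.51 ± 0.07 at 6 h (adjusted p = 0.000484). *Akt1* was lower at 12 h (-0.31 ± 0.04, adjusted p = 0.000125) and higher at 24 h (0.24 ± 0.06, adjusted p = 0.0427), and *Mtor* was lower at 12 h (-0.18 ± 0.05, adjusted p = 0.00981). *Irs1*, an adaptor of both receptors, was lower at 6 h (-0.22 ± 0.07, adjusted p = 0.05 after rounding), *Irs2* higher at 18 h (0.43 ± 0.10, adjusted p = 0.0366), and *Insr*, the insulin receptor gene, lower at 24 h (-0.33 ± 0.08, adjusted p = 0.0393). No gene of this list passed beyond a log2 fold change of 1 at any of the 5 times, and the list medians were -0.00028, 0.065, 0.062, 0.11 and -0.057.

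Several of these calls depended on the processing or on single libraries. *Irs1* at 6 h lost the threshold with DESeq2 (adjusted p = 0.0518), all 30 libraries (0.221) and log2(FPKM + 1) (0.219), among others. *Gab1* at 6 h lost it with all 30 libraries (adjusted p = 0.0518) and log2(FPKM + 1) (0.0922). On that FPKM scale *Foxo3* and *Irs2* at 18 h (adjusted p = 0.0526 and 0.0591) and *Akt1* and *Insr* at 24 h (0.0699 and 0.122) lost it too. At 6 h *Gab1* lost the threshold without DMSO replicate 1 or 3 or C59 replicate 1, 2 or 3 (adjusted p = 0.105, 0.0867, 0.0952, 0.0841 and 0.0716) and *Irs1* without DMSO replicate 2 or 3 or C59 replicate 1, 2 or 3 (adjusted p = 0.128, 0.11, 0.0944, 0.0765 and 0.197). At 18 h *Foxo3* (adjusted p = 0.128, 0.0844, 0.141, 0.107 and 0.124) and *Irs2* (adjusted p = 0.134, 0.0844, 0.158, 0.0759 and 0.0891) lost it without DMSO replicate 1, 2 or 3 or C59 replicate 1 or 2, and held without C59 replicate 3 (0.47 and 0.37, adjusted p = 0.0198 and 0.0158). At 24 h *Akt1* lost it without DMSO replicate 1, 2 or 3 or C59 replicate 2 (adjusted p = 0.156, 0.167, 0.168 and 0.0657) and *Insr* without DMSO replicate 1, 2 or 3 or C59 replicate 1 or 2 (adjusted p = 0.186, 0.0681, 0.105, 0.066 and 0.108). The calls at 12 h of *Foxo3*, *Gab1*, *Akt1* and *Mtor* held without each library, and that of *Mtor* was lost with upper-quartile factors (-0.11, adjusted p = 0.0832) and on both FPKM scales (adjusted p = 0.0993 and 0.084).

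The 3 genes for IGF2 mRNA-binding proteins, which bind *Igf2* transcripts in embryonic cells, were all lower in C59 at 12 h in the counts. At this time 43.1% of all genes tested passed, and 23.1% were lower. *Igf2bp2* changed by -0.34 ± 0.04 (adjusted p = 0.000136), *Igf2bp3* by -0.32 ± 0.04 (adjusted p = 0.00024) and *Igf2bp1* by -0.30 ± 0.06 (adjusted p = 0.0026), on the log2 scale. On log2(FPKM + 1) the *Igf2bp1* value was -0.21 and did not pass (adjusted p = 0.056), and its 24 h call was lost there too (adjusted p = 0.0539). *Igf2bp1* was higher at 6 h (0.26 ± 0.06, adjusted p = 0.0123) and lower at 24 h (-0.47 ± 0.07, adjusted p = 0.00292). The 6 h call was lost without C59 replicate 3 (adjusted p = 0.0713) and with all 30 libraries in the fit (adjusted p = 0.0784). All 3 fell from 1 h to 24 h in DMSO, with log2 changes of -0.49, -0.49 and -0.42 for *Igf2bp1*, *Igf2bp3* and *Igf2bp2*, beside 53.5% of all genes tested that passed and 26.8% that were lower.

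**Figure D5:**
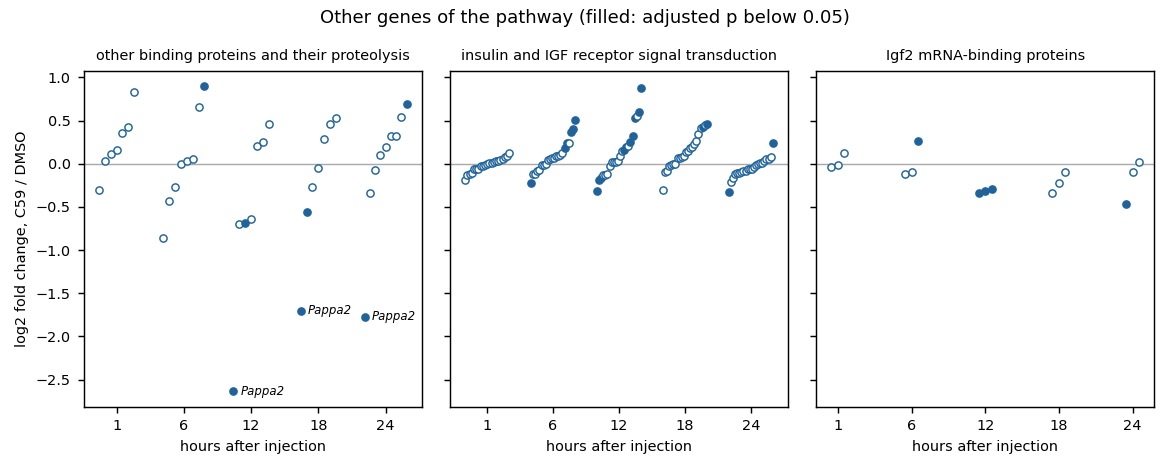
Log2 fold change of C59 against DMSO (y axis) of every tested gene in the 3 pathway lists at 1, 6, 12, 18 and 24 h (x axis, genes ordered by value within a time), with filled circles for an adjusted p below 0.05. *Pappa2* is the sole gene beyond a log2 fold change of 1 that passed, at -2.63, -1.70 and -1.77, and the 3 filled points at 12 h in the right panel are the *Igf2bp* genes.

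Genes with the most similar course were found by Pearson correlation of log2 CPM over the 30 libraries among 13567 genes with a mean of at least 1 CPM. For *Igf1* these were *Zim1* (r = 0.923), *Pdgfc* (0.912), *Frmd6* (0.893), *Bdnf* (0.892) and *Tnfrsf19* (0.879). For *Igf2* they were *Furin* (0.885), *Rhob* (0.882), *Spint2* (0.861), *Abtb2* (0.849) and *Galnt2* (0.848), and for *H19* they were *Ech1* (0.933), *Psap* (0.924), *Plod1* (0.903), *Abca3* (0.896) and *Spint2* (0.893). *Spint2*, which encodes a serine protease inhibitor, was on the lists of both *Igf2* and *H19*. These values are descriptions, since the libraries share groups, times and composition.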

How the data were processed

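Libraries of 10 groups (DMSO or C59 at 5 times) with 3 replicates each were grouped by their labels, and all 30 were used. Per the submitters' processing notes and the study's methods, the authors trimmed reads with Cutadapt 1.16, mapped them to mm10 with STAR 2.7.0e and a custom annotation, and deposited raw counts per gene, whose strand setting is not given in the sources used here. The authors computed the deposited FPKM with Cufflinks 2.2.1, ignoring strand and correcting for multi-mapping reads and sequence bias. Genes matched GENCODE M21 for 50628 of 50833 identifiers, and no column of values of another series was present. The members and gene lists, and the rule for naming genes (the members, *Axin2*, the extreme genes of each pathway list, the 5 most correlated genes of 3 members), were chosen with earlier results of these data known.

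Library sizes were scaled by TMM and genes of low count removed by filterByExpr (at least 10 counts in enough libraries, 15 in sum). The test was the quasi-likelihood F test of edgeR 4.0.16 (R 4.3.3), run for each time point on its own 6 libraries and interactions on 12. All autosomal genes entered, not protein-coding genes alone as in the study, because *H19* is noncoding. Standard errors were derived from the F statistic, CPM are relative to TMM-scaled library sizes, and intervals are at 95%. The fits were run on simulated counts with planted changes, a common dispersion for all genes and no outlying library. This was a check of the code and not of the calls in these data. Replicates are different embryos. None of the 30 replicate pairs agreed within sampling noise (chi-square per degree of freedom 3.49 to 46.6). The pairs with C59 replicate 3 of 18 h gave 43.2 and 36.4. Like values came from pairs with DMSO replicate 1 of 6 h (46.2 and 39) and of 18 h (39.8 and 32), and with C59 replicate 2 of 24 h (46.6 and 34.8). Alternatives were DESeq2 1.42.0, RLE and upper-quartile factors, other filters, protein-coding genes, all 30 libraries, limma 3.58.1 on log2(FPKM + 1) and log2(FPKM + 0.1), a replicate block, leaving out each library, and, chosen after seeing the data, offsets for GC content and length in 20 bins. A fold change on log2(FPKM + 1) understates changes of low genes.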

Additional observations from a re-analysis of the deposited data

Results flagged for a closer look

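The effect of C59 differed between neighbouring time points, by the test of the difference itself, for 7 values. From 1 h to 6 h these were *Igf1* (interaction log2 -1.32, against 10.7% of genes tested that passed) and *Igfbp5* (0.55). From 6 h to 12 h it was *H19* (0.40, against 14.6%). From 12 h to 18 h these were *Igf1* (1.96), *Igfbp2* (0.535) and *Igfbp3* (-0.73), against 7.36%. The *Igfbp2* value lost the threshold without DMSO replicate 1 or 3 of 12 h (adjusted p = 0.0509 and 0.0529), C59 replicate 2 or 3 of 12 h (adjusted p = 0.0507 and 0.067) or DMSO replicate 2 of 18 h (adjusted p = 0.0632). From 18 h to 24 h it was *Igf1r* (-0.69, against 5.69%), which was lost without any one of 6 libraries, as given above.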

How the results depend on the processing

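Of the values of single members under the alternatives, 1071 kept direction and side of the threshold, 67 gained it, 58 lost it and 28 reversed. Including 4 of *Axin2*, 32 values reversed, none of which passed before or after. They were, on the log2 scale, for C59 against DMSO at 1 h *Igf2* (-0.0188 on both FPKM scales), *H19* (0.0030 with upper-quartile factors), *Igf1r* (-0.0059 and -0.0061 on FPKM, -0.0099 with GC and length offsets) and *Igfbp4* (0.0020 with upper-quartile factors), at 18 h *Igfbp4* (-0.0087 with all 30 libraries, -0.0094 and -0.0095 on FPKM, -0.037 with offsets), and for C59 at 24 h against 1 h *Igf1r* (0.0097 and 0.010 on FPKM) and *Axin2* (0.00033 with upper-quartile factors, 0.075 and 0.077 on FPKM). Leaving out each library in turn spanned 0 for *Igf2* (-0.0386 to 0.055), *H19* (-0.0392 to 0.0217), *Igf1r* (-0.0235 to 0.104), *Igf2r* (-0.0421 to 0.17) and *Igfbp4* (-0.033 to 0.0186) at 1 h, *Igf2* (-0.0305 to 0.0808) and *Igfbp4* (-0.0040 to 0.0923) at 6 h, *Igfbp4* at 18 h (lowest -0.107), *Igfbp5* (-0.0212 to 0.144) at 24 h, and *Igf2r* (-0.0455 to 0.149) and *Axin2* (-0.0728 to 0.0281) for C59 at 24 h against 1 h.

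The number of members passing was 0, 4, 7, 2 and 2 at 1, 6, 12, 18 and 24 h. Without a filter it was 1 at 1 h and 7 at 18 h. At 18 h it was 6 with DESeq2, 4 with upper-quartile factors, 1 with protein-coding genes or on either FPKM scale, 8 with all 30 libraries, 7 with offsets and 0 with the replicate block. Over all genes 1331 passed at 18 h with DESeq2, 941 with upper-quartile factors, 2051 with offsets and 411 with the replicate block. At 24 h the number of members was 4 with DESeq2, 1 with all 30 libraries and 0 on either FPKM scale, and over all genes 1054 passed with DESeq2. Requiring a log2 fold change beyond 1 left 1 member at each of 6 and 12 h and 0 later, 1, 0, 1 and 0 of the 2, 1, 3 and 1 interactions, and 2 and 2 of the 6 and 7 members that rose over 24 h in DMSO and in C59. For the interaction from 1 h to 6 h the member count was 4 without a filter or with offsets, where 1864 and 1823 of all genes passed in place of 1675. From 6 h to 12 h the member count was 3 without a filter, 0 with protein-coding genes or on log2(FPKM + 0.1), and 2 with offsets or the replicate block. *H19* is noncoding and was left out of the fits of protein-coding genes, so that it could not be counted there, here or at 18 h. Over all genes 2306 passed from 6 h to 12 h, but 2603 without a filter and 2458 with protein-coding genes. There were 1679 on log2(FPKM + 0.1), 2607 with offsets and 2453 with the replicate block. From 18 h to 24 h the member count was 3 with DESeq2, without a filter or with all 30 libraries, 2 with upper-quartile factors, a mean of at least 1 CPM or protein-coding genes, and 4 with offsets. Over all genes 918 passed from 18 h to 24 h, but 1478 with DESeq2, 1532 without a filter and 2449 with all 30 libraries. Upper-quartile factors, the mean of at least 1 CPM, protein-coding genes and offsets gave 986, 1006, 960 and 1768. Leaving out each library gave 0 to 1, 4 to 6, 6 to 8, 0 to 7 and 0 to 3 members at the 5 times, 2 to 5, 1 to 3, 2 to 4 and 0 to 5 for the interactions, and 5 to 7 for DMSO and 7 to 7 for C59 over 24 h. Over all genes the counts at the 5 times (376, 2548, 6551, 876 and 822) had their lowest values of 43, 1015, 385 and 148 at 1, 6, 18 and 24 h on log2(FPKM + 0.1), 5737 at 12 h with DESeq2, and their highest values of 887, 2907, 6930 and 1535 at 1, 6, 12 and 24 h without a filter and 3888 at 18 h with all 30 libraries. Leaving out each library gave 206 to 616, 1379 to 3054, 5261 to 6370, 181 to 2073 and 276 to 927. For the interactions it gave 1123 to 1858, 1762 to 2412, 667 to 2062 and 440 to 2018 of all genes. Over 24 h it gave 7287 to 8272 in DMSO and 6398 to 7991 in C59. The cause was not tested beyond what a setting itself changes.

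Replicate numbers were shared by the groups but did not pair the samples. Same-number libraries correlated at -0.199 to 0.113, with 1 of 15 pairs over 0.1. Fitting the replicate block gave 0, 5, 8, 0 and 2 members at the 5 times, beside 284, 2101, 6721, 411 and 672 of all genes. With 3 libraries per group the calls near the threshold at 18 h and 24 h, and the small shifts of *Igf2*, depend on single libraries, while *Igf1* at 6 h and 12 h does not. The *Igf2* counts are low for its FPKM, and within groups *Igf1*, *Igf1r*, *Igf2r* and *Igfbp2*, among others, moved with the level of long genes in a library.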
